A study of Mus musculus with 8 samples.

Results

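Committed differentiating oligodendrocyte precursors were studied in single-cell RNA sequencing of the frontal isocortex of mouse pups at postnatal day 7. They were the cells sorted for the Drd1a-tdTomato reporter that had at least 1 count of Gpr17 and of Sox10, at least 1 count of Enpp6 or Bmp4, and 0 counts of Mog, Top2a and Mki67. The rule found 119 cells among 11494 reporter-sorted cells and 22876 cells in the whole series. These cells are called committed precursors here, and all values of the rule's own genes are descriptions, because the cells were chosen by the counts of these 7 genes.

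Oligodendrocyte precursor cells (OPCs) divide, carry the growth factor receptor Pdgfra and spread through the brain before and after birth. A part of them leaves the cell cycle, loses Pdgfra and passes through a short committed state marked by Gpr17, a G protein-coupled receptor that restrains maturation, and by Bmp4, a secreted growth factor, and Enpp6, a choline phosphodiesterase. The cells then form oligodendrocytes, which wrap axons in myelin, and Mog, a late myelin surface protein, marks that later stage. In the cortex of mouse pups of this age few cells have reached it.

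The study asked how loss of Foxp2, a forkhead transcription factor of deep cortical layers, changes sorted cortical cells. Controls had the genotype Drd1a-tdTomato; Foxp2 flox/flox with no Cre, and conditional knockouts (cKO) were their littermates with Emx1-Cre in addition, so both groups carried the bacterial artificial chromosome reporter of line 6 and floxed Foxp2 alleles, on a C57BL/6J background. Emx1-Cre is active in the progenitors of the dorsal telencephalon and their offspring, which include cortical excitatory neurons and a part of the cortical glia, and whether a given member had recombined was not measured. There were 2 control and 2 cKO libraries, each made with a droplet kit that counts the 3' ends of transcripts. Control 1 and cKO 1 (both female) were prepared on 1 day as batch 1, and control 2 (female) and cKO 2 (male) on another day as batch 2. The labels do not give the number of animals behind a library, so p-values measure the spread between libraries.

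The 4 libraries held 3206, 2395, 2812 and 3081 cells in the order control 1, control 2, cKO 1 and cKO 2, which is the order of every set of 4 values below. Their total counts ranged from 27323298 to 36379194, and the median count per cell from 7198 to 12815. Committed precursors had a median of 10812 counts and 3287 detected genes per cell, against 8120 counts and 2739 genes in OPCs. The small whole numbers in the tables did not behave alike in both batches. Among members, values of 2 were 1.74 and 1.61 times as frequent as values of 1 in control 1 and cKO 1, and 0.744 and 0.345 times as frequent in control 2 and cKO 2. Whether a value of 1 stands for 1 molecule was therefore not established, and counts, shares of cells with a count and thinned values below are in the tables' own units. Across the D1Tom libraries 97 cell barcodes occurred in more than 1 library, and 3 members had such a barcode.

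The cells that the rule chose carried its genes well above the threshold in most cases. Gpr17 had a median of 14 counts per member and a maximum of 101, and 113 of 119 members had 3 or more. Enpp6 was above 0 in 87 members and Bmp4 in 105, with 73 members positive for both, 14 for Enpp6 only and 32 for Bmp4 only. Pdgfra, which the rule did not ask about, was at 0 in 78 members and above 0 in 41. Just inside the rule, 3 members had a single count of Gpr17. Just outside it, 7 cells missed only Gpr17, 11 only Sox10 and 899 only Enpp6 and Bmp4, while 17 met all but the lack of Mog and 34 all but the lack of Top2a and Mki67.

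Comparison types were drawn from the same libraries. OPCs were cells with Pdgfra and Sox10 above 0 and Mog, Top2a and Mki67 at 0 that were not members, 1161 cells with 287, 234, 258 and 382 per library. Gpr17 was above 0 in 861 of these OPCs, which the rule set apart from members only by their lack of Enpp6 and Bmp4. Cells with Mog and Sox10 above 0 and no Top2a or Mki67, called Mog cells, numbered only 18 (2, 7, 6 and 3), so they are described and not tested. Endothelial cells, which should lack many oligodendrocyte genes, served as a rough level of free RNA. These 249 cells had at least 3 of 6 endothelial genes and no Sox10. The lack of Sox10 can also leave out cells with free RNA of the lineage, so the level may be too low for lineage genes. Some genes of the lists were frequent in them, such as Cspg4 in 49.8% and Fyn in 82.7%. Whether these came from free RNA or from the cells themselves was not tested.

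Some of the markers that the rule left aside went with the label. Bcas1, which marks newly forming oligodendrocytes, was detected in 111 of 119 members (93.3%), in 29.3% of OPCs and in 3.21% of endothelial cells. With every cell thinned to 3000 counts the shares were 83.2%, 15.0% and 0.803%. Mag, a myelin-associated adhesion protein of later cells, was present in 24.4% of members, 77.8% of Mog cells, 0.0861% of OPCs and 0.402% of endothelial cells. Of the OPC markers, Cspg4 (18.5% of members and 57.3% of OPCs) and Lhfpl3 (65.5% and 84.3%) were in fewer members than OPCs. Ptprz1 (96.6% and 99.4%) and C1ql1 (83.2% and 79.7%) differed little. The endothelial cells were the deepest of these types, at a median of 20290 counts, so their unthinned shares come from more counts per cell.

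Marker lists of other cells had different levels in members. Summed microglial markers came to 0 to 102.6 CPM (a gene's counts scaled to a common total over a type's cells in a library) and endothelial and mural markers to 20.8 to 62.6 CPM, against 6197 to 8770 CPM for the latter in endothelial cells. In members Tmem119, Vtn, Kcnj8, Dcn and Alas2 were at 0. Summed neuron markers were higher, at 630.0, 3303, 1337 and 2447 CPM, and lay at 2124 to 3640.2 CPM in OPCs and 199 to 1104 CPM in endothelial cells. Summed astrocyte markers were 5580 CPM in control 1 and 2880 to 4678 CPM in the other 3 libraries. In OPCs they were at 3486 to 6024 CPM. In endothelial cells they were at 1374 to 2582 CPM, below the members of the same library in each case. Against OPCs, 2 of 17 neuron markers (Snap25 and Celf4), 0 of 12 astrocyte markers (3 at an unadjusted p under 0.05 by edgeR, and 0 called by DESeq2) and Cldn5 among 4 endothelial and mural markers tested were lower. Of the markers of olfactory ensheathing and Schwann cells, Npy, Pmp22 and Fabp7 were lower and 1 was higher. Over all genes tested against OPCs 3.48% were higher and 2.85% lower. The part of such transcripts in the results below was not tested.

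Committed precursors were compared with OPCs of the same libraries to ask which genes differ between these types. The members pooled cells that differed among themselves, as described below. Cldn11, for example, was detected in 34 of 73 members with Enpp6 and Bmp4, 4 of 32 with Bmp4 only and 3 of 14 with Enpp6 only. Whether a difference from OPCs arose at commitment or later was not tested. Genes that rose included several of myelin and its membrane, among them Cldn11 and Mbp, and the genes that fell included Rasl11a, a Ras-like GTPase gene, and Cspg4, the NG2 proteoglycan of OPCs. Of 11218 genes tested with edgeR's quasi-likelihood test, 390 (3.48%) were higher and 320 (2.85%) lower in committed precursors at an adjusted p under 0.05, 6.33% in all. The median log2 fold change over all genes tested was -0.08. The rule's genes and Pdgfra were left out of the test, and other genes that vary with them from cell to cell also differ through the choice of cells.

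Cldn11, the claudin that seals myelin layers, stood at 208, 214, 136 and 153 CPM in committed precursors. In OPCs it was at 2.32, 0.898, 3.05 and 1.50 CPM, so the groups were far apart in every library (log2 fold change 6.49 ± 0.31 (SE), adjusted p = 6.9e-19). Mbp, myelin basic protein, was at 4375, 2471, 3527 and 1628 CPM against 30.9, 39.2, 57.3 and 45.7 CPM in OPCs (log2 fold change 6.02 ± 0.18 (SE), adjusted p = 6.9e-26). Both batch 1 libraries were above both batch 2 libraries. Part of the Mbp locus also gives golli transcripts, which 3' counts do not separate.

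**Figure D1:**
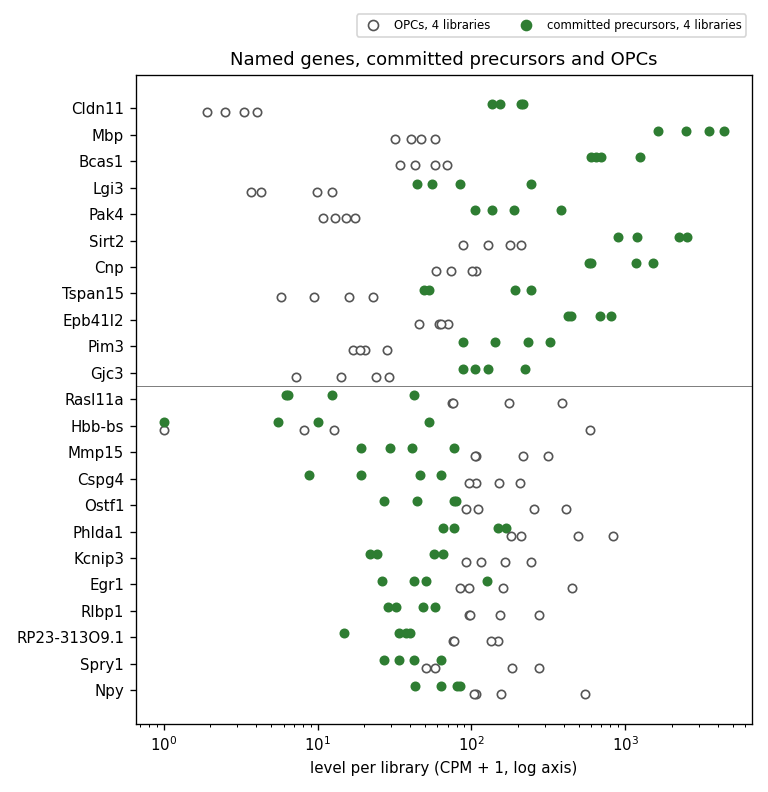
Level of named genes in each of 4 libraries, as CPM + 1 on a log axis, with 11 of the 12 higher genes above the line and the 12 lower genes below it. Filled points are committed precursors and open points OPCs; for Mbp the filled points lie at 1628 to 4375 CPM and the open ones at 30.9 to 57.3 CPM, while for Hbb-bs 1 open point, control 2, stands at 592 CPM apart from the rest.

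Among genes with a mean of at least 100 CPM in the higher type, the other 9 with the largest rises were Bcas1, Lgi3, Pak4, Sirt2, Cnp, Tspan15, Epb41l2, Pim3 and Gjc3, with log2 fold changes from 3.07 to 3.99. Bcas1 had 692, 598, 1250.2 and 645 CPM in committed precursors and 68.1, 33.2, 57.3 and 42.1 CPM in OPCs (log2 fold change 3.99 ± 0.17 (SE), adjusted p = 4.9e-21). Sirt2, a deacetylase that is abundant in the oligodendrocyte lineage, had 2513, 1185, 2241 and 894 CPM against 208, 87.7, 177 and 128 CPM (log2 fold change 3.45 ± 0.14 (SE), adjusted p = 2.5e-21). Cnp, an enzyme of the myelin cytoplasm, was at 1509, 584, 1178 and 595 CPM against 106, 58.1, 100.0 and 72.4 CPM (log2 fold change 3.44 ± 0.15 (SE), adjusted p = 8.5e-21). Lgi3, a secreted leucine-rich repeat protein, was most abundant in control 1, at 242 CPM, and at 43.3 to 83.5 CPM in the other libraries. Pak4, a p21-activated kinase, was in contrast highest in cKO 1, at 383 CPM, with 105 to 187 CPM elsewhere. Tspan15 (a tetraspanin), Epb41l2 (a membrane skeleton protein), Pim3 (a kinase) and Gjc3 (a connexin) had no overlap between the types either. Values of members and OPCs did not overlap, 4 libraries against 4, for all 12 named higher genes and for 9 of the 12 named lower ones. The named genes were picked from these same values, for large folds with the same sign in 4 libraries. Their lack of overlap therefore describes the choice. Over all genes tested 3.96% did not overlap upward and 5.27% downward. Cnp overlaps Dnajc7 and Sirt2 overlaps Nfkbib on the opposite strand, Pak4 overlaps Samd4b on the same strand, and whether counting used strand is not given in the sources used here.

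The promoters of Cldn11, Sirt2 and Cnp are shown because these 3 genes rose together, and because Sox10, which chose the cells, is known to bind short Sox motifs. Each is the 250 bases before the annotated start, from RefSeq on GRCm38.p6, written 5′ to 3′ on the gene's strand, with matches to ACAAAG or ACAATG, on either strand, in capitals. Cldn11 (chr3:31149670-31149919, plus strand) had no match, Sirt2 (chr7:28766502-28766751, plus strand) had 1 and Cnp (chr11:100574689-100574938, plus strand) had 1.
Cldn11: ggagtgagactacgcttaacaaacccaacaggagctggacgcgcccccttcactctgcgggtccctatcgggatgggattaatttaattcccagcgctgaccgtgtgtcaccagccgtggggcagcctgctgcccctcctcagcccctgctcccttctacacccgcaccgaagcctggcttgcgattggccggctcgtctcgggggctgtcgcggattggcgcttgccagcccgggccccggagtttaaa
Sirt2: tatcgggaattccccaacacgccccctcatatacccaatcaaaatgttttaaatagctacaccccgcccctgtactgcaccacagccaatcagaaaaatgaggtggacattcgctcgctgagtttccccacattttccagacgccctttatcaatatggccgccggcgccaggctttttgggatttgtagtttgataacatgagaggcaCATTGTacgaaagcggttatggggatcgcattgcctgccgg
Cnp: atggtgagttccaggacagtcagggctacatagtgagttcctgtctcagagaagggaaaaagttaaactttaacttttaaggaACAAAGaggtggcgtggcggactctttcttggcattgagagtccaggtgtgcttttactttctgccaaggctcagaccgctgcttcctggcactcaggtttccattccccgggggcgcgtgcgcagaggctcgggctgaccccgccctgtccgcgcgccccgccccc
Of the 12 named higher genes 8 had a promoter entry, and 3 of them (Sirt2, Cnp and Tspan15) held a motif. Among the named lower genes 2 of 9 with an entry were counted as holding one (Kcnip3 and Rlbp1). The 250 bases before the start of Kcnip3 had no match, however, so its count is not on the basis stated above. Over all 27025 genes with an entry the share by that count was 28.2%. A match is a run of letters and not a measured binding site.

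Genes of the committed and newly formed stage were mostly higher. Of 24 members of the list tested, 19 were higher and 0 lower, with a median log2 fold change of 1.97. Over all genes tested 3.48% were higher and 2.85% lower, the shares to set beside each list count against OPCs below. Fyn, a Src-family kinase that drives process outgrowth, was at 2063, 926, 2130.2 and 949 CPM against 259.6, 226, 249.7 and 208 CPM in OPCs (log2 fold change 2.57 ± 0.14 (SE), adjusted p = 6.8e-17). Tcf7l2, a Wnt pathway transcription factor of this stage, had 284, 229.6, 397 and 289.6 CPM against 55.3, 38.9, 60.3 and 55.9 CPM (log2 fold change 2.51 ± 0.17 (SE), adjusted p = 3.7e-14), and its 4 values spread less than 2-fold. Neu4, a sialidase, reached a log2 fold change of 2.75, the axon-glia adhesion gene Nfasc 2.77, the tensin Tns3 2.37 and the calcium channel Itpr2 1.87. Lims2, an integrin adaptor, was at 1108, 451, 1399 and 356 CPM against 200.4, 82.3, 232 and 76.3 CPM (2.44 on the log2 scale), but Gpr17 lies within the Lims2 locus on the opposite strand, and reads of the 2 genes cannot be told apart without strand.

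Among 15 myelin genes tested, 9 were higher and 0 lower, with a median of 1.00. Beside those above they were Mag, Fa2h (a fatty acid hydroxylase of myelin lipids), Tspan2 and Plekhb1. Mag had 27.7, 54.8, 72.6 and 47.9 CPM in committed precursors, from 4, 21, 40 and 21 counts. In OPCs it had 1 count in all, in cKO 2, so no fold is given. Fa2h was at 132, 57.4, 119.8 and 38.8 CPM against 12.8, 2.69, 10.7 and 4.21 CPM (log2 fold change 3.56 ± 0.32 (SE), adjusted p = 7e-11). Other members of the list, chosen after their values were seen, were at or near 0. Opalin, Mal and Ermn had 0 counts in all 4 libraries and Mobp 1 count, in cKO 2, while Aspa had 2, 0, 2 and 1 counts, and these were not tested. The 18 Mog cells likewise had 0 cells with Opalin, Mal or Aspa and 1 with Mobp.

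The 18 Mog cells extended the same series, as a description. Their Mbp level was 11892, 10768, 12372 and 5916 CPM, above the committed precursors of every library. Tcf7l2 was also higher, at 652, 779, 614 and 664 CPM. Gpr17 was at 1869.6, 490.2, 1883 and 506 CPM in Mog cells and at 2105, 911, 2479 and 880.3 CPM in committed precursors, so that the 2 types overlapped. Of the 18 Mog cells 17 met the whole rule for members except the lack of Mog, and so had Gpr17 above 0. Mog cells had a median of 15081 counts per cell against 10812 in members, and the part of depth in these levels was not tested.

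**Figure D2:**
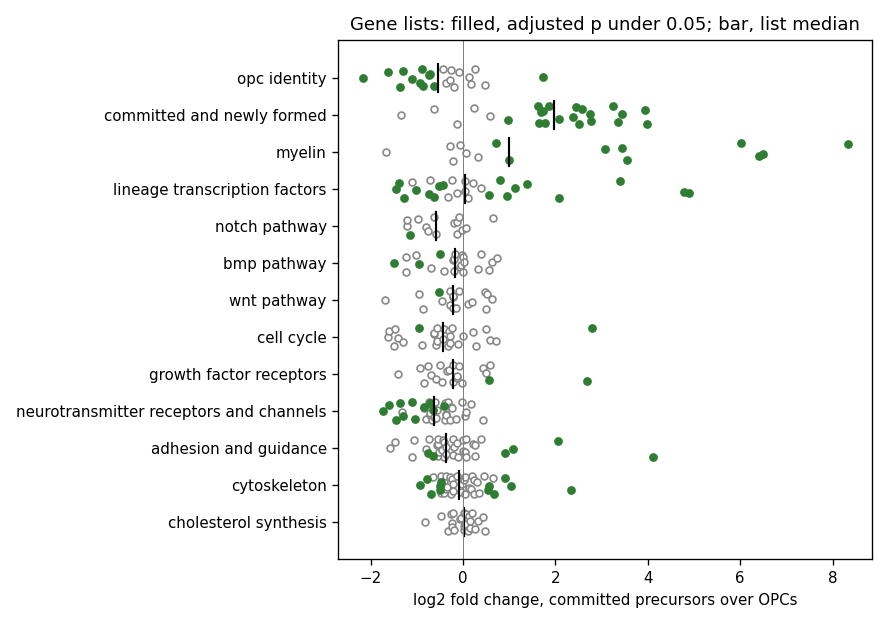
Log2 fold change of committed precursors over OPCs for each tested gene of 13 lists, with filled points for an adjusted p under 0.05, open points for the others and a bar at the list median. In the committed and newly formed list 19 of 24 points are filled and to the right of 0, and in the list of neurotransmitter receptors and channels 11 of 37 are filled and to the left.

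Transcription factors of the lineage moved in both directions, 9 higher and 8 lower of 27 tested, with a median of 0.05. The differentiation factors Myrf, Nkx2-2, Zfp488, St18 and Nkx6-2 were among the higher ones. Myrf, the activator of myelin genes, had 90.0, 39.1, 119.8 and 57.0 CPM against 12.0, 2.39, 11.1 and 5.11 CPM in OPCs (log2 fold change 3.40 ± 0.33 (SE), adjusted p = 3.3e-10). Nkx2-2, a homeodomain factor, had 485, 117, 363 and 132 CPM against 85.5, 26.0, 87.0 and 42.7 CPM (log2 fold change 2.09 ± 0.18 (SE), adjusted p = 2.9e-11), and in both types batch 1 was higher. St18 and Nkx6-2 rose by larger folds (4.90 and 4.79 on the log2 scale), from 10 and 4 counts over all OPCs, and Nkx6-2 overlaps Inpp5a on the opposite strand. Zeb2, Sox8, Tsc22d4 and Sox2 were higher as well, by 1.12, 0.96, 0.80 and 0.57.

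The 8 lower factors included Sox9 and the Notch effectors Hes1 and Hes5, which act in progenitors. Sox9 was at 48.5, 99.1, 103 and 198 CPM against 326, 260.1, 317 and 306 CPM (log2 fold change -1.38 ± 0.19 (SE), adjusted p = 1.8e-06). Its 4 member values differed more than 4-fold, with control 1 lowest and cKO 2 highest, yet all lay below the 4 OPC values. Hes5 and Hes1 fell by 1.01 and 1.44 on the log2 scale. Hes5 went from 552, 344, 579 and 367 CPM to 187, 224, 261 and 201 CPM (adjusted p = 6.6e-06). Prrx1, Nfib, Sox11, Nfia and Olig1 also fell, by 0.43 (Olig1) to 1.27 (Prrx1). Olig2, which is expressed throughout the lineage, was at 858, 266, 688 and 278 CPM against 950.1, 227, 607 and 289 CPM and did not pass (log2 fold change 0.05 ± 0.13, adjusted p = 0.909). Without cKO 1 the list had 8 higher and 3 lower, the latter Sox9, Hes1 and Hes5.

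Signalling pathways showed few calls beyond these, where over all genes tested 3.48% were higher and 2.85% lower. Of 15 Notch genes tested 1 was lower, Nrarp, a feedback inhibitor of the pathway, which had 145, 70.4, 143 and 139 CPM against 419, 182, 396 and 179 CPM (log2 fold change -1.15 ± 0.18 (SE), adjusted p = 1.4e-05), and 0 were higher, with a median of -0.59. Although Bmp4 helped choose the cells, of 23 other genes of the bone morphogenetic protein pathway 0 were higher and 3 were lower, with a median of -0.17. These were Bmp7 (a ligand, -1.49), Zeb1 (a transcriptional repressor, -0.96) and Id2 (a target that inhibits differentiation factors, -0.50). Id4, another such target, was at 277, 75.7, 47.2 and 91.2 CPM against 81.2, 77.8, 115 and 109.6 CPM and did not pass (log2 fold change 0.02 ± 0.27 (SE), adjusted p = 0.979). In the Wnt list, 1 of 18 was lower, Apc (-0.51), and 0 were higher. Of 21 growth factor and hormone receptors, Lpar1 (a lysophosphatidic acid receptor) and Thra (a thyroid hormone receptor, which overlaps Nr1d1) were higher by 2.68 and 0.57, and 0 were lower. Without cKO 1 Bmp7, Zeb1, Id2, Apc and Thra no longer passed, while Nrarp and Lpar1 did.

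A part of the receptor and channel genes was lower. Of 37 neurotransmitter receptor and channel genes 11 fell and 0 rose, with a median of -0.62. Among them were the glutamate receptor genes Gria2, Grik1, Grik4 and Grm5, the nicotinic receptor gene Chrna4, the potassium channel genes Kcnd2 and Kcnd3, the sodium channel genes Scn1a and Scn3a and the adenosine receptor gene Adora1. Only Chrna4, Kcnd2 and Adora1 passed without cKO 1, and 4 of the list passed by DESeq2. Chrna4 had the largest fall of these, from 74.3, 45.5, 61.1 and 52.0 CPM to 27.7, 15.7, 10.9 and 20.5 CPM (log2 fold change -1.72 ± 0.32 (SE), adjusted p = 0.00022). Adora1 went from 144, 99.7, 131 and 98.5 CPM to 48.5, 57.4, 32.7 and 50.2 CPM (log2 fold change -1.30 ± 0.24 (SE), adjusted p = 0.00014). Gria2, an AMPA receptor subunit, was still abundant, at 471, 660.1, 709 and 620.3 CPM against 924, 775, 949 and 689 CPM (log2 fold change -0.42 ± 0.13 (SE), adjusted p = 0.0367). Summed neuron markers, given above, were lower in members than in OPCs of each library, and their part in this result was not tested.

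Surface and guidance genes split. Of 37 tested, Plxnb3, Sema4d, Ephb1 and Sema5a were higher and Cntn1 and Chl1 lower, with a median of -0.38. Plxnb3, a plexin receptor, rose from 5.42, 2.10, 3.05 and 5.11 CPM to 83.1, 65.2, 87.1 and 41.1 CPM (log2 fold change 4.11 ± 0.39 (SE), adjusted p = 3.2e-10). Sema4d, a membrane semaphorin of oligodendrocytes, had 55.4, 41.7, 81.7 and 73.0 CPM against 11.2, 19.8, 15.3 and 13.2 CPM (log2 fold change 2.07 ± 0.31 (SE), adjusted p = 6.3e-06). Cntn1 and Chl1, adhesion molecules of the immunoglobulin family, were lower (log2 fold changes -0.75 and -0.66). Without cKO 1 Sema5a and Chl1 did not pass.

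Cytoskeletal genes were the most abundant list, at a sum of 34490.4 to 43944 CPM in members, and 6 of 40 were higher and 6 lower. The higher ones were the tubulins Tubb4a (2.33) and Tuba1a (0.54), the actin regulators Wasf1 (1.03) and Tmsb4x (0.57), Dnm3 (0.67) and the RNA-binding protein Qk (0.90). The lower ones were the stathmins Stmn1 to Stmn4, which destabilise microtubules, with Dpysl3 and Tmsb10, at log2 fold changes of -0.93 (Stmn4) to -0.47 (Tmsb10). Without cKO 1 the calls were 4 higher and 2 lower. Tubb4a had 422, 305, 492 and 274 CPM against 70.0, 81.7, 64.5 and 71.5 CPM (log2 fold change 2.33 ± 0.18 (SE), adjusted p = 4.8e-13).

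Among 28 cell cycle genes tested, Cdkn1c, which encodes the cyclin-dependent kinase inhibitor p57, was higher and Ccnd1, cyclin D1, lower. Over all genes tested 3.48% were higher and 2.85% lower, and 1 of 28 in each direction was near these shares. Cdkn1c had 104, 33.9, 83.5 and 29.6 CPM against 12.4, 4.79, 9.93 and 6.61 CPM (log2 fold change 2.80 ± 0.35 (SE), adjusted p = 1.5e-07), and Ccnd1 62.3, 80.9, 65.3 and 109 CPM against 272, 127, 166 and 126 CPM (log2 fold change -0.95 ± 0.22 (SE), adjusted p = 0.00271). Ccnd1 did not pass without cKO 1. Dividing cells had been left out of both types by Top2a and Mki67. Of 24 cholesterol synthesis genes 0 passed by edgeR or DESeq2, each tool had 2 with an unadjusted p below 0.05, and the median was 0.02.

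Among identity genes of OPCs 11 of 22 tested were lower, with a median of -0.54, and 1, the extracellular matrix gene Tnr, was higher. Cspg4, the NG2 proteoglycan of OPCs, went from 206, 106, 151 and 95.8 CPM to 62.3, 7.83, 45.4 and 18.2 CPM (log2 fold change -2.17 ± 0.26 (SE), adjusted p = 6.8e-08). Ptprz1, a receptor phosphatase, fell by only 0.71 and kept 1059 to 1909 CPM. Cspg5, Megf11, Xylt1, Lhfpl3, Emid1, Ednrb, Serpine2, Tmem100 and Rlbp1 made up the other 9, at -1.63 (Rlbp1) to -0.64 (Tmem100). Tnr rose from 317, 200.3, 325 and 196 CPM to 1198, 725, 994 and 572 CPM (log2 fold change 1.72 ± 0.13 (SE), adjusted p = 2.2e-13).

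Among genes with a mean of at least 100 CPM in the higher type, the 12 with the largest falls were Rasl11a, Hbb-bs, Mmp15, Cspg4, Ostf1, Phlda1, Kcnip3, Egr1, Rlbp1, RP23-313O9.1, Spry1 and Npy. Rasl11a went from 385, 73.3, 174 and 74.8 CPM to 41.5, 5.22, 5.44 and 11.4 CPM (log2 fold change -3.67 ± 0.31 (SE), adjusted p = 1e-11). Mmp15, a membrane-bound matrix protease, had 76.2, 28.7, 39.9 and 18.2 CPM against 311, 106, 216 and 105 CPM (log2 fold change -2.24 ± 0.23 (SE), adjusted p = 1.2e-09). Spry1, an inhibitor of receptor tyrosine kinase signalling, and Egr1, an immediate early gene, fell by 1.59 and 1.64. In OPCs both were highest in control 1 and then in cKO 1, and 5 of 12 dissociation-response genes tested were lower in members (Jun, Junb, Egr1, Ier2 and Dusp1), while Fos was at 658, 26.1, 50.8 and 38.8 CPM against 533, 41.3, 68.0 and 49.6 CPM and did not pass (adjusted p = 0.76). Without cKO 1, Junb and Egr1 passed. The part of dissociation in these falls was not tested.

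Hbb-bs, a haemoglobin chain whose reads can be shared with its copies, had 0, 52.2, 9.07 and 4.56 CPM in members and 0, 592, 11.8 and 7.21 CPM in OPCs, so that its fall of 2.81 rests on control 2. Summed blood markers in OPCs were 1.55, 1637, 22.5 and 21.0 CPM. Without control 2 its log2 fold change was -0.50 (adjusted p = 0.89), and the other 11 genes still passed.

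The number of calls, though not the leading genes, depended on the library cKO 1 and on the method. Without cKO 1, 208 genes were higher and 79 lower, and 286 of the 710 calls were kept. DESeq2 gave 358 higher and 156 lower, cells thinned to 3000 counts 216 and 214, and OPCs with 0 Gpr17 as the comparison 309 and 134. All 12 named higher genes and 10 of 12 named lower genes passed in each of 12 alternatives, with Hbb-bs (9) and Npy (11) as the exceptions.

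Members differed among themselves with the gene that admitted them. Those with Bmp4 but no Enpp6 (4, 7, 11 and 10 per library) stood near OPCs in Hes5 and, in 3 of 4 libraries, in Cspg4, and those with both (10, 14, 28 and 21) had higher levels of myelin transcripts. Hes5 was at 374, 361, 661 and 316 CPM in Bmp4-only members, against 552, 344, 579 and 367 CPM in OPCs. Cspg4 was at 210.2, 11.7, 186 and 67.7 CPM, against 206, 106, 151 and 95.8 CPM. Members with both were not fitted against those with Bmp4 only, so the values are descriptions. Mbp was at 1191, 105, 177 and 293 CPM in Bmp4-only members and at 5716, 3189, 4206 and 2470.5 CPM in members with both. In each library the members with both were higher. Mag had 0 counts in the 32 Bmp4-only cells, which allows a share of cells with a count of up to 9.38%, and was detected in 28 of 73 cells with both (38.4%).

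Precursor genes ran the other way. Cspg4 had 210.2, 11.7, 186 and 67.7 CPM in Bmp4-only members and 0, 3.91, 7.38 and 3.81 CPM in members with both. Hes5 was at 374, 361, 661 and 316 CPM against 108, 160.4, 175 and 160.1 CPM, so that Bmp4-only cells stood near the OPC values given above. Tcf7l2 was low in Bmp4-only members, at 70.1, 11.7, 158 and 67.7 CPM, and reached 374, 313, 445 and 393 CPM with both. Gpr17 itself overlapped, at 1472, 1026, 2838 and 1128 CPM against 2371, 966, 2539 and 862 CPM, and Myrf did too, at 117, 46.6, 93.0 and 56.4 CPM against 78.7, 43.0, 123 and 53.4 CPM. Of 21 committed-stage genes at a mean of 20 CPM or more, 18 were higher with both in 4 of 4 libraries, and of 21 OPC identity genes 9 were lower. Over all 7268 genes at that level 743 were higher and 442 lower in 4 of 4. The 2 subsets were set apart by Enpp6, so genes that vary with it from cell to cell differ through the choice of cells. Median counts were 12019 per cell with both and 9626.5 with Bmp4 only, and the part of depth in this split was not tested. The 14 Enpp6-only members, 8 of them from cKO 2, had pooled levels of 2268 CPM for Mbp and 24.1 for Cspg4.

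**Figure D3:**
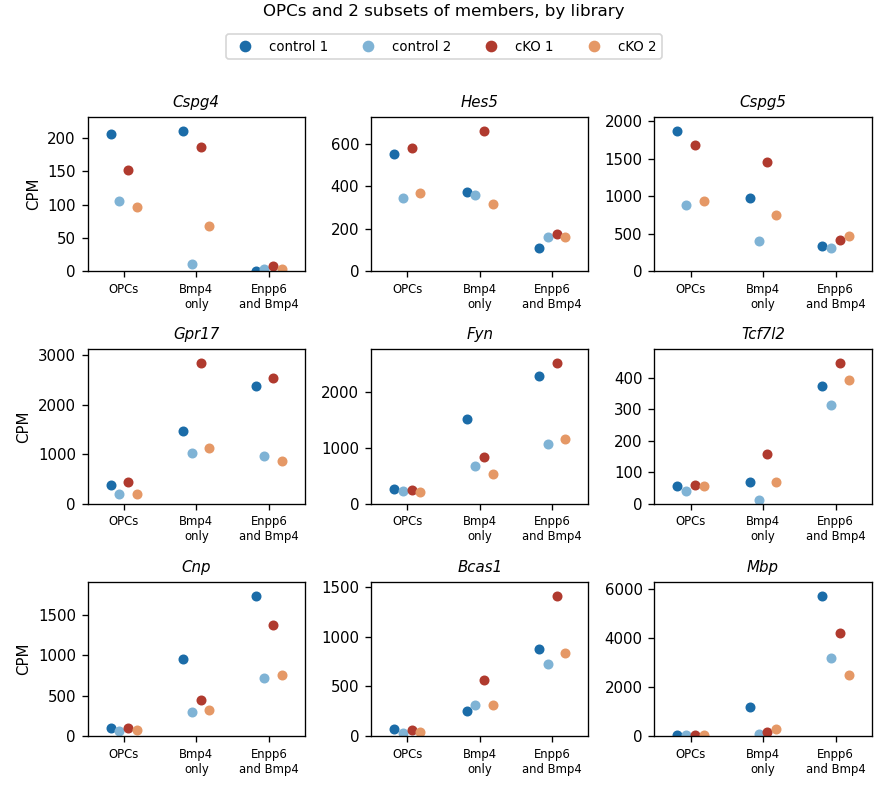
Level in CPM of 9 genes in OPCs, in members with Bmp4 only and in members with Enpp6 and Bmp4, with 1 point per library and its own linear axis for each gene. Tcf7l2, Cnp and Mbp are higher in members with both in 4 of 4 libraries, Cspg4 and Hes5 are lower, and Gpr17, which chose the members, overlaps between the 2 subsets.

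Remaining Pdgfra split the members less sharply in committed-stage and myelin genes, but not in OPC identity genes. The 41 members with Pdgfra (3, 9, 10 and 19 per library) and the 78 without had pooled Mbp levels of 1768 and 3372 CPM. The order was not the same in every library, since in cKO 1 Mbp was at 4112 CPM with Pdgfra and 3327 CPM without it. Of 12 myelin genes 1 was higher without Pdgfra in 4 of 4 libraries, whereas 7 were higher with both Enpp6 and Bmp4 than with Bmp4 only. Of 21 committed-stage genes 10 were higher without Pdgfra in 4 of 4, and of 21 OPC identity genes 9 were higher in none. Over all 7268 genes at a mean of 20 CPM or more these counts were 564 and 523. Here too, genes that vary with Pdgfra from cell to cell differ through the choice of cells. Cnp was at 499.5 CPM with Pdgfra and 1113 without it, and Sirt2 at 937 and 1992, both higher without Pdgfra in 4 of 4 libraries. Cspg4 was at 63.8 against 10.3 CPM and Sox9 at 199 against 82.6 CPM, and neither was higher without Pdgfra in any library. Pdgfra was above 0 in 16 of 32 Bmp4-only members, 8 of 14 Enpp6-only members and 17 of 73 members with both.

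Committed precursors made up 0.437% of cells in control 1 (14 of 3206), 1.00% in control 2 (24 of 2395), 1.49% in cKO 1 (42 of 2812) and 1.27% in cKO 2 (39 of 3081). Exact Clopper-Pearson 95% intervals were 0.239 to 0.732%, 0.643 to 1.49%, 1.08 to 2.01% and 0.902 to 1.73%, for counting error only. Both cKO libraries were above both control libraries, with means of 0.719% ± 0.400 (SD, n = 2) and 1.38% ± 0.161 (SD, n = 2). The difference of 0.660 percentage points had p = 0.333 in an exact two-sided permutation test, the smallest p that 2 against 2 libraries allow. Within batch 1 it was 1.06 points and within batch 2 0.264 points, and the intervals of the batch 2 libraries overlapped.

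The denominator and the depth changed how far the batches shared that difference. As a share of lineage cells (members, OPCs and Mog cells) the members came to 4.62%, 9.06%, 13.7% and 9.20%, a difference of 9.11 points in batch 1 and 0.142 in batch 2. With all cells thinned to 3000 counts, which left out 349, 12, 331 and 149 cells, the shares of all cells were 0.420%, 0.587%, 1.41% and 0.614%, and the batch 2 difference was 0.0264 points. Thinned shares of lineage cells were 5.74%, 13.3%, 15.2% and 7.56%, so the groups overlapped and the batch 2 difference was -5.77 points. In all 4 of these series control 1 was the lowest library and cKO 1 the highest.

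Neighbouring types were counted in the same libraries. OPCs were 8.95%, 9.77%, 9.17% and 12.4% of cells, with the groups overlapping. After thinning they were 6.90%, 3.73%, 7.82% and 7.47%, and both cKO libraries were then above both controls, by 2.33 points (exact two-sided permutation test, p = 0.333). Mog cells were 0.0624%, 0.292%, 0.213% and 0.0974%, and cells that met the rule apart from Top2a or Mki67 were 5, 12, 8 and 9 in number, both with overlap. Among members, the share with both Enpp6 and Bmp4 was 71.4%, 58.3%, 66.7% and 53.8%, and the share with Pdgfra 21.4%, 37.5%, 23.8% and 48.7%. In both the groups overlapped, and batch 2 had fewer members with both and more with Pdgfra than batch 1.

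**Figure D4:**
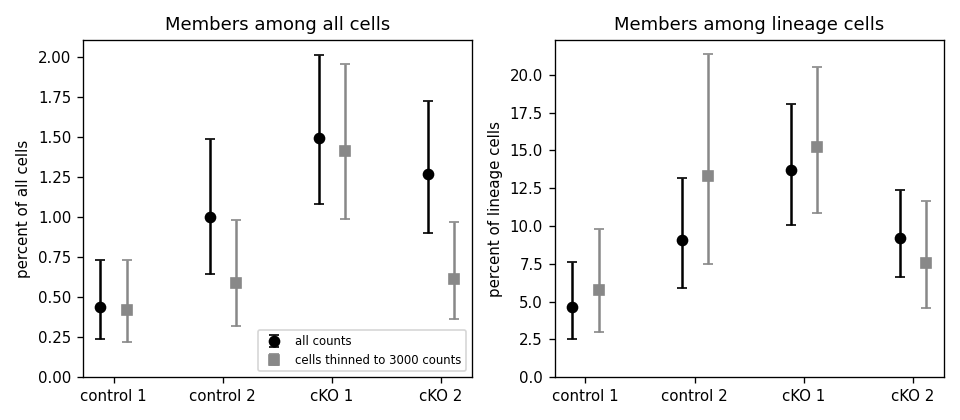
Committed precursors as a percent of all cells (left) and of lineage cells (right) in the 4 libraries, with all counts (black circles) and after thinning every cell to 3000 counts (grey squares), and exact 95% intervals for counting error. Control 1 is lowest and cKO 1 highest in each series, while control 2 and cKO 2 lie within each other's intervals except in the thinned share of lineage cells.

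Gene expression within committed precursors was compared by genotype, 2 cKO against 2 control libraries. Of 6928 genes tested 0 passed by edgeR at an adjusted p under 0.05 (0% called), with 61 at an unadjusted p under 0.05. By DESeq2 0 passed as well, and 36 had an unadjusted p below 0.05. With the batch as a block edgeR gave 0, with 154. The groups were 14 and 24 cells against 42 and 39.

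The stage genes did not pass the test. Between cKO and control, Mbp had a log2 fold change of -0.41 ± 0.48 (SE), unadjusted p = 0.403. Bcas1 had 0.55 ± 0.44 (SE), unadjusted p = 0.234 and Tcf7l2 0.43 ± 0.42 (SE), unadjusted p = 0.325. For Mbp, with values given above, the 2 libraries of a batch were closer to each other than those of a genotype. Of 12 tested myelin genes, 10 had a negative and 2 a positive log2 fold change, with a median of -0.28 against 0.01 over all genes tested. Among these 12, 1 had both cKO libraries below both controls and 0 had them above. Over all genes tested the shares were 10.5% below and 12.9% above.

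The 6 genes with the smallest unadjusted p were mt-Co2, Sdhaf3, Reln, Tbk1, Cldn10 and Fam19a2, each with an adjusted p of 1.00 by edgeR. The mitochondrial gene mt-Co2 had 83.1, 310.5, 14.5 and 29.6 CPM in committed precursors (log2 fold change -3.24 ± 0.67 (SE), unadjusted p = 0.00037). Its adjusted p was 0.00031 with no filter on low counts, 5.9e-08 without control 1 and 0.0384 without cKO 2, and above 0.05 in the other 8 of 11 alternatives, with a log2 fold change of -1.86 without control 2. It had 78.5, 275, 6.87 and 29.7 CPM in OPCs of the same libraries, so the order of the libraries was the same in both types. Reln, an extracellular guidance protein, was high in control 2 alone, at 34.6, 303, 25.4 and 38.8 CPM. Cldn10, a claudin, was at 69.2, 44.4, 9.07 and 16.0 CPM, and Fam19a2, a secreted chemokine-like protein, at 13.8, 23.5, 61.7 and 82.1 CPM, with no overlap between genotypes for either. Tbk1 and Sdhaf3 were at 0, 0, 27.2 and 25.1 CPM and 0, 5.22, 56.3 and 31.9 CPM.

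**Figure D5:**
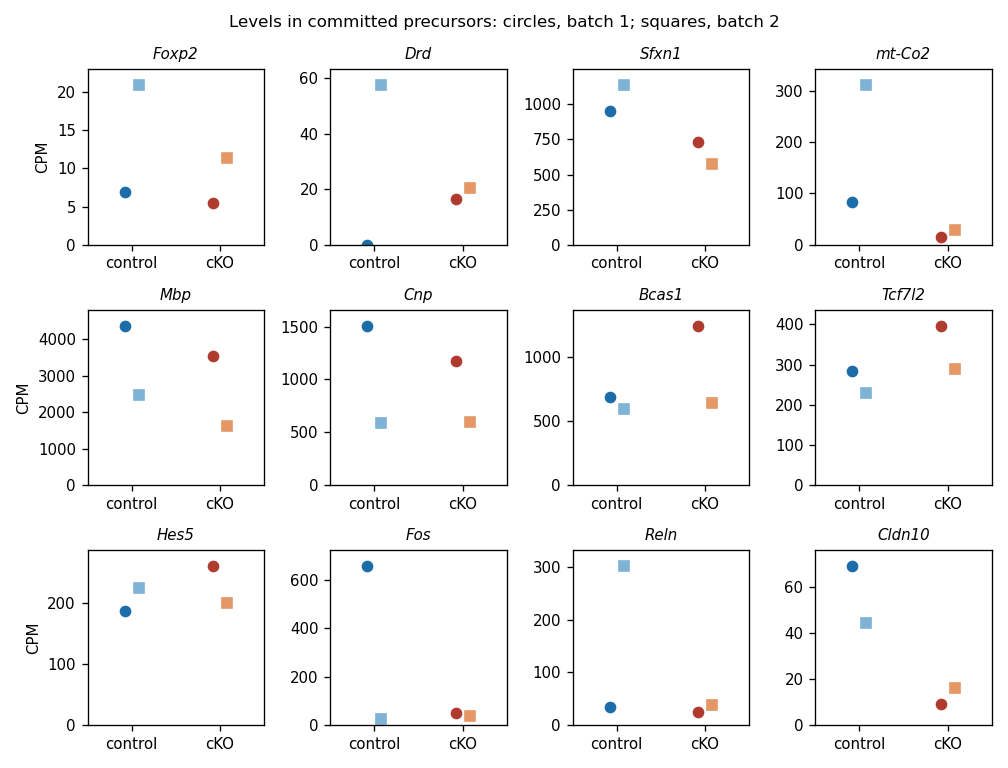
Level in CPM of 12 genes in committed precursors of the control (left) and cKO (right) libraries, with circles for batch 1, squares for batch 2 and a linear axis from 0 for each gene. Mbp follows the batch, with both circles above both squares, mt-Co2 and Cldn10 are lower in both cKO libraries, and Fos is high in control 1 alone, at 658 CPM.

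By genotype, every list had 0 calls by edgeR and by DESeq2. Over all genes tested 12.9% had both cKO libraries above both controls and 10.5% both below. The 3 lists given first here were picked for their counts. In the Notch list 4 of 8 tested genes had both cKO libraries above both controls and 0 below. In the bone morphogenetic protein list 5 of 13 had both below and 1 above, and among 21 OPC identity genes 4 had both above and 0 below. Of 38 cytoskeleton genes 2 had both above and 0 below, of 29 adhesion and guidance genes 1 and 3, and of 21 cholesterol synthesis genes 2 and 2. At an unadjusted p under 0.05 edgeR had 0 Notch, 1 bone morphogenetic protein and 0 OPC identity genes. Hes1 was at 48.5, 26.1, 81.7 and 59.3 CPM (log2 fold change 1.02 ± 0.57 (SE), unadjusted p = 0.0965), and Id4 at 277, 75.7, 47.2 and 91.2 CPM (-1.23 ± 0.61 (SE), unadjusted p = 0.0648), where control 1 stood apart from the other 3.

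Foxp2, the targeted gene, was sparse in committed precursors, with 1, 8, 3 and 5 counts in all, or 6.92, 20.9, 5.44 and 11.4 CPM. Too low for the test by genotype, it showed overlapping groups. The labels do not say which exons the floxed alleles lose, and counts of 3' ends can lie outside them, so these values do not check the deletion. In OPCs Foxp2 was at 41.4, 49.7, 42.0 and 23.7 CPM, above the members of each library (log2 fold change -1.76 ± 0.39 (SE), adjusted p = 0.0022). It was detected in 10.1% of members, 17.4% of OPCs and 19.3% of endothelial cells, and after thinning in 4.20%, 7.44% and 4.82%. The members' pooled share was thus at or below that of a type expected to lack it. These shares pool the libraries, and 151 of 249 endothelial cells but 24 of 119 members came from control 2, where Foxp2 was highest in members. The difference from OPCs did not pass without cKO 1 (adjusted p = 0.133) or with thinned cells (adjusted p = 0.319), and it passed in the other 10 alternatives.

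A row that the tables name Drd, a symbol that the reference annotation does not hold and whose gene was therefore not identified here, was at 0, 57.4, 16.3 and 20.5 CPM in committed precursors, with 0, 22, 9 and 9 counts. Detection was 16.0% in members, 16.0% in OPCs and 12.0% in endothelial cells, and 3.36%, 5.95% and 4.82% after thinning. The members had been sorted for a reporter driven by a D1 receptor promoter. By these pooled shares, detection of Drd in members was near that in endothelial cells. Control 2, which gave 151 of 249 endothelial cells but 24 of 119 members, also had the highest Drd level in members. Whether the Drd row lay above free RNA within a library was not tested. The difference in Drd between members and OPCs did not pass (log2 fold change -0.40 ± 0.35 (SE), adjusted p = 0.648). Sfxn1, a mitochondrial serine carrier, was at 955, 1135, 733 and 575 CPM, lower in both cKO libraries without passing the test by genotype (log2 fold change -0.68 ± 0.41 (SE), unadjusted p = 0.122).

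The genotype effect in committed precursors was set against that in OPCs by an interaction term over the same 11218 genes. It passed for 1 gene (0.00891%), the haemoglobin gene Hba-a1, with 284 genes at an unadjusted p under 0.05, and DESeq2 gave 0, with 90. Hba-a1 is described with the results for a closer look.

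Cells that met the rule were also found in the golli-τ-eGFP sort, almost all in its cKO 1 library, which held 46 of 54. There Bcas1 was at 1243 CPM in cells meeting the rule and 80.1 CPM in OPCs, and Cspg4 at 3.46 and 111. All 12 named higher genes and 11 of the 12 named lower genes differed in the same direction in that library, which was not part of the fit and is 1 library without replication. Its cells were chosen by the same rule, so genes that vary with the rule's genes differ there through the choice of cells too. The share over all genes was not counted.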

How the data were processed

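The values are counts as the authors deposited them, in 1 table per sort (17836 genes for the tdTomato sort), made, per the submitters' processing notes, with bcl2fastq 2.17.1.14, Cell Ranger 2.1.1, UMI-tools 0.5.4, STAR 2.5.2b, featureCounts (Subread 1.6.2) and builds mm10 and GRCm38.p6. Cell names were matched to libraries through the labels. Members and comparison types were chosen by counts per cell, and the members and gene lists were chosen with earlier results of these data known. Counts were summed per library and type and tested with edgeR 4.0.16 in R 4.3.3 (quasi-likelihood test, TMM, its default filter on low counts, Benjamini-Hochberg at 0.05 over all genes tested, without the genes that define the types). The comparison with OPCs had the library as a covariate, and the genotype comparison had no batch term. The replicate numbers pair the libraries, since the labels give each number 1 day of preparation, and same-numbered libraries deviated together from their group means (correlation 0.385 over 6933 genes). DESeq2 1.42.0, no filter, each library left out, thinned cells, a Gpr17 count of at least 2, both Enpp6 and Bmp4, OPCs with 0 Gpr17, the batch block and, added after seeing the data, OPCs with Gpr17 were the alternatives. Named genes were the 12 largest rises and 12 largest falls against OPCs among genes past the threshold with the same sign in 4 libraries, an absolute log2 fold of at least 1 and a mean of at least 100 CPM in the higher type, with Foxp2, Drd, members of the lists and, by genotype, the 6 smallest p. Genes chosen after their values were seen are Opalin, Mal, Ermn, Mobp and Aspa among the list members at or near 0. A doublet caller (Scrublet in scanpy 1.11.5) marked 15, 5, 5 and 1 cells, too few to rely on, so all cells were kept and an alternative removed the cells that scored highest (82, 46, 63 and 76 cells, 2 of them members). The test was checked on simulated data. Gene overlaps came from GENCODE M21. List genes that the table lacks, such as Ugt8a, were not analysed here. Counted but not reported by name are 1 of the 12 higher named genes and 2 list members.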

Additional observations from a re-analysis of the deposited data

Results flagged for a closer look

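The haemoglobin gene Hba-a1 was the 1 gene whose genotype effect differed between committed precursors and OPCs by edgeR, with a log2 difference of 5.14 (adjusted p = 0.00466). Its levels in committed precursors, in the library order of the report, were 0, 26.1, 10.9 and 9.12 CPM. OPCs had 1.16, 495, 4.20 and 6.61 CPM, so that the value of control 2 stood apart. The adjusted p ranged from 3.3e-05 to 0.876 over 9 alternatives and was under 0.05 in 6, and the highest was that without control 2. Reads of Hba-a1 and its copy Hba-a2 may be shared.

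In the golli-τ-eGFP sort, whose cells entered no fit of the report, 3.19% of the cells of cKO 1 met the rule (46 of 1440, exact 95% interval 2.35 to 4.24%). The 2 control libraries had 0.0253% and 0.130%, and cKO 2 had 0.103%. OPCs were 12.9% of cells in that cKO 1 library and 0.608%, 1.40% and 1.57% in control 1, control 2 and cKO 2. Its median count per cell was 2982, against 1085.5, 1163 and 1268, and the part of that depth in the share was not tested.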

How the results depend on the processing

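No call between committed precursors and OPCs that was tested again changed direction in any of the 12 alternatives except 2 without control 2. Against 390 higher genes, cells thinned to equal counts gave 216 and leaving out 1 library 208 to 393. Against 320 lower genes, DESeq2 gave 156, OPCs with 0 Gpr17 gave 134 and leaving out 1 library 79 to 424. By genotype, against 0, no filter on low counts gave 8 and leaving out 1 library 3 to 9, where the lone library of a group is assumed to vary like the other group. Against 1 interaction, DESeq2 gave 0, no filter 4, OPCs with 0 Gpr17 0, OPCs with Gpr17 (added after seeing the data) 2, and leaving out 1 library 0 (cKO 1) to 31 (control 2). The causes were not tested. With the replicate block, which pairs the libraries of a batch, the genotype comparison gave 0, so the block changed no call there. The mean within-batch difference in the members' share was 0.660 points. With 1 library of each genotype per batch it must equal the difference of group means, so it is no check on the batch. Committed precursors against Mog cells, and Enpp6-only against Bmp4-only members, could not be fitted, since no library had 10 cells of both. With 14 to 42 members per library, low genes such as Foxp2 could not be tested by genotype.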
